A study of Mus musculus with 4 samples.

Results

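Heme and iron recycling was followed through 8 genes, Slc40a1, Hmox1, Spic, Tfrc, Fth1, Ftl1, Blvrb and Slc11a1, across the cells of the spleen. They were taken by symbol from the 32285 genes of a droplet single-cell RNA sequencing experiment, and all 8 were found. The libraries came from 4 female C57BL/6J mice, 1 library per mouse. The D3TA genotype is a heterozygous CRISPR/Cas9 knock-in that puts alanine in place of threonine 283 of cyclin D3, the product of Ccnd3, and was carried by 2 mice. The other 2 mice were wild type (WT) and matched for age and sex. Ages were 12 and 16 months and are not tied to single mice in the labels. At these ages the knock-in mice are described as having a severe myeloproliferative neoplasm, an overproduction of myeloid blood cells.

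Red pulp macrophages of the spleen engulf worn-out red cells, degrade their heme and return the iron to the blood. Heme oxygenase 1 opens the heme ring and frees iron and biliverdin, the iron is stored in ferritin or exported through ferroportin, and erythroblasts take it up again through the transferrin receptor. Iron regulatory proteins bind iron-responsive elements, short RNA hairpins. In a 5′ UTR such a hairpin blocks translation when iron is scarce, and in the 3′ UTR of the transferrin receptor mRNA the hairpins stabilise the mRNA.

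The libraries held 64410 barcodes, of which 52330 cells were kept, between 7679 and 22286 per library. WT replicate 1 stood apart, with a median of 1393 unique molecular identifiers (UMIs, counted RNA molecules) per kept cell against 7559 to 7919 in the other 3 libraries. Pairs of libraries shared 32 to 127 barcode sequences. Cells were clustered without the 8 genes and named from markers that do not include them. Macrophage-like cells numbered 243 and 133 in the D3TA libraries and 410 and 77 in the WT libraries, which was 2.06% and 1.26% of D3TA cells and 1.84% and 1.00% of WT cells. All 13 macrophage markers had at least 1 UMI in the class sum of every library. Among them was Vcam1, an adhesion receptor of red pulp macrophages, at 1794 to 2609 CPM (UMIs of the gene per 1000000 UMIs of the sum). Marginal zone macrophages were not named as a class of their own, so such cells may be in this class. RNA of other cells was present in the class and differed by genotype. The 10 mature neutrophil markers summed to 15970 and 20560 CPM in D3TA and 486 and 168 CPM in WT macrophage-like cells, and the 15 erythroid markers to 26120 and 10570 CPM in D3TA and 7848 and 6616 CPM in WT. The part of this RNA in the results below was not tested. The smallest exact permutation p that 2 mice per genotype allow is 0.333, so differences were tested with edgeR on UMI sums per library and class, adjusted over all genes tested.

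The transcripts of 4 of the 8 genes held the hairpin by which iron regulatory proteins read cellular iron, and the sites are shown because they divide the genes into those with a 5′ element and Tfrc with its 3′ elements. The capitals mark the first 5 bases of the loop (CAGTG). The search asked for an unpaired C, an arm of 5 bases, a loop of 6 bases (CAGTGN) and a pairing arm, with G-T pairs allowed, on the transcript's strand only. Positions are on GRCm38 from the GENCODE M21 annotation, which is not shown to be the release behind the counts.
Fth1, 5′ UTR, exon 1, chr19:9982733-9982760, plus strand: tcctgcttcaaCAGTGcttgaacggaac
Ftl1, 5′ UTR, exon 1, chr7:45459779-45459806, minus strand: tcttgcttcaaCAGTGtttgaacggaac
Slc40a1, 5′ UTR, exon 1, chr1:45925465-45925492, minus strand: aacttcagctaCAGTGttagctaagttt
Tfrc, 3′ UTR, exon 19, chr16:32631220-32631247, plus strand: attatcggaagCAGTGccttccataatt
Tfrc, 3′ UTR, exon 19, chr16:32631599-32631626, plus strand: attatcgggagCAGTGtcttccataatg
Tfrc, 3′ UTR, exon 19, chr16:32631664-32631691, plus strand: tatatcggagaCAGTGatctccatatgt
Tfrc, 3′ UTR, exon 19, chr16:32631711-32631738, plus strand: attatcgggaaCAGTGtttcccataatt

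The same pattern occurred in the 5′ UTR of 31 of 21901 coding genes (0.142%) and in the 3′ UTR of 129 (0.589%). It did not occur in the UTRs of Hmox1, Spic, Blvrb or Slc11a1. A match describes the sequence and does not show binding.

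Slc40a1 encodes ferroportin, the only known iron exporter of mammalian cells (chr1:45908068-45926523, minus strand). In macrophage-like cells it stood at 1345 and 2520 CPM in D3TA replicates 1 and 2 and at 2082 and 2316 CPM in WT replicates 1 and 2. In mature neutrophil-like cells it stood at 227 and 342 CPM in D3TA and at 322 and 695 CPM in WT. The genotypes overlapped in both classes, and the lowest macrophage value lay above the highest neutrophil value. Monocyte-like cells, by contrast, held 4.91 and 3.97 CPM in the D3TA libraries and 6.06 and 0 CPM in the WT libraries, where the 0 allows up to 5.08 CPM. B cell-like cells, which should lack the gene, held 1.80 and 2.70 CPM in D3TA and 6.06 and 2.66 CPM in WT. In D3TA replicate 1, 1515 of the 1773 B cell-like cells were of cluster 12. That cluster held 41 cells of D3TA replicate 2, and 3 and 7 cells of WT replicates 1 and 2. The monocyte-like level was above that of B cell-like cells in both D3TA libraries, beyond counting error in replicate 1 only (95% exact Poisson intervals of 3.07 to 7.43 and 1.30 to 2.43 CPM), and was not above it in the WT libraries. Erythroid-like cells lay in between, at 56.5 and 73.6 CPM in D3TA and 48.4 and 70.4 CPM in WT.

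**Figure D1:**
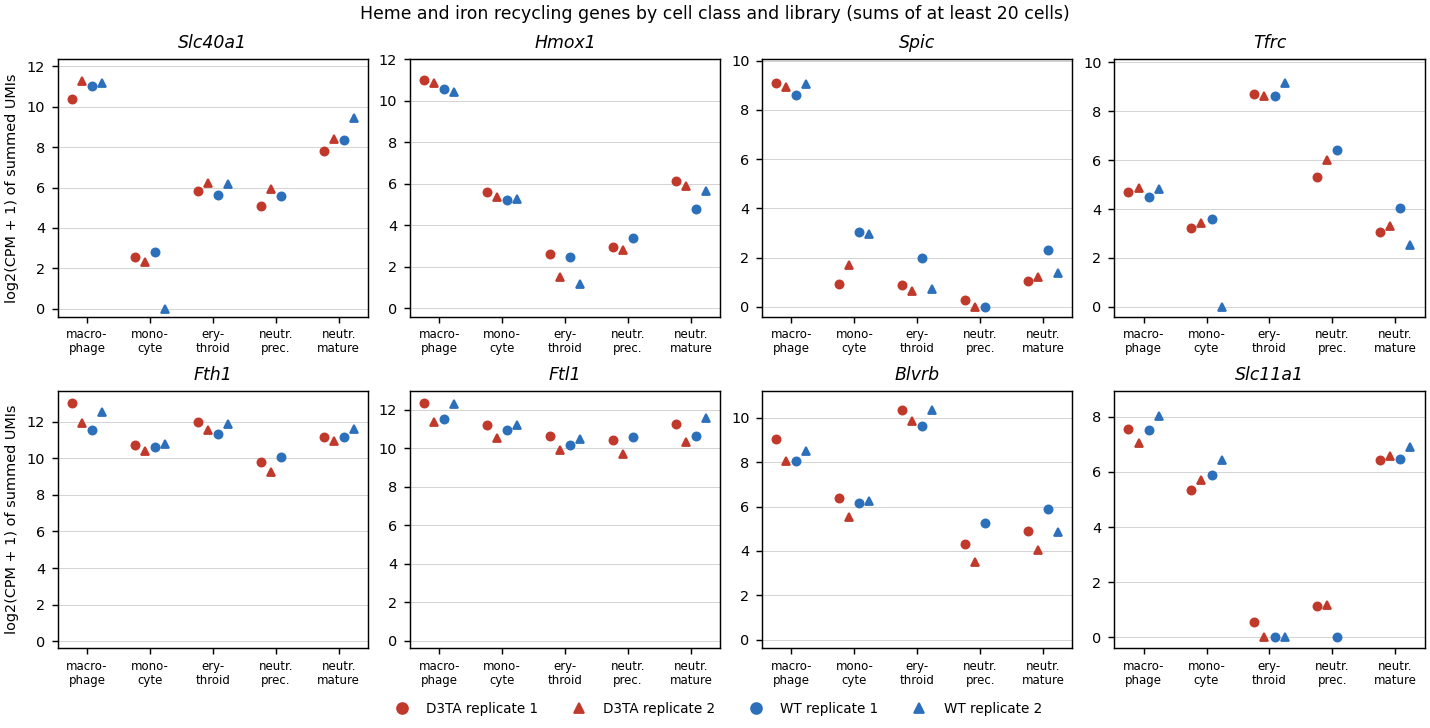
Level of each gene in 5 cell classes, as log2(CPM + 1) of the UMIs summed per library and class (y axis), with D3TA libraries in red left of WT libraries in blue and sums of under 20 cells left out. Slc40a1, Hmox1 and Spic are highest in macrophage-like cells in every library, while Tfrc and Blvrb are highest in erythroid-like cells.

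Hmox1, the heme oxygenase that iron, heme and oxidants induce (chr8:75093621-75100589, plus strand), stood at 2069 and 1837 CPM in D3TA and 1500 and 1389 CPM in WT macrophage-like cells. Both D3TA values lay above both WT values, but the difference did not pass the edgeR test (log2 0.50 ± 0.44, adjusted p = 0.995). Monocyte-like cells came to 48.4 and 39.7 CPM in D3TA and 36.4 and 37.3 CPM in WT. Spic, the transcription factor on which red pulp macrophages depend (chr10:88674772-88685015, minus strand), was at 551 and 483 CPM in D3TA and 384 and 535 CPM in WT macrophage-like cells. No other class exceeded 8.59 CPM of Spic, a value reached in dendritic cell-like cells. Blvrb, a biliverdin and flavin reductase of red cells (chr7:27447978-27466144, plus strand), had its highest level in erythroid-like cells, 1311 and 921 CPM in D3TA and 793 and 1332 CPM in WT. Macrophage-like cells were next with 521 and 268 CPM in D3TA and 268 and 367 CPM in WT, and monocyte-like cells had 44.8 to 83.8 CPM over the 4 libraries.

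Tfrc encodes the transferrin receptor, the port of entry for transferrin-bound iron (chr16:32608920-32632794, plus strand). Erythroid-like cells held 419 and 394 CPM in D3TA and 388 and 575 CPM in WT, with overlapping genotypes. Plasmacytoid dendritic cell-like cells followed with 230 CPM in the 48 cells of WT replicate 1, the only library with 20 or more of them. Macrophage-like cells stayed between 21.6 and 28.3 CPM. Slc11a1, the phagosomal metal transporter NRAMP1 (chr1:74375195-74386062, plus strand), stood at 190 and 133 CPM in D3TA and 182 and 262 CPM in WT macrophage-like cells. Mature neutrophil-like cells followed with 85.7 and 94.2 CPM in D3TA and 86.6 and 120 CPM in WT, whereas erythroid-like cells had 0.478 and 0 CPM in D3TA and 0 CPM in both WT libraries.

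The ferritin subunits were high in every class. Fth1, the heavy chain that oxidises iron (chr19:9980598-9985098, plus strand), was at 8213 and 3900 CPM in D3TA and 3013 and 5889 CPM in WT macrophage-like cells, and at 4015 and 2971 CPM in D3TA and 2577 and 3728 CPM in WT erythroid-like cells. The 2 classes overlapped. Ftl1, the light chain that helps to form the iron core (chr7:45457944-45459884, minus strand), was at 5177 and 2640 CPM in D3TA and 2877 and 4993 CPM in WT macrophage-like cells, against 1577 and 964 CPM in D3TA and 1142 and 1395 CPM in WT erythroid-like cells. Near-identical copies can share reads with the ferritin genes, and how such reads were assigned is not given in the sources used here. The copy Ftl1-ps1 had its own counts, 44.1 to 58.8 CPM in macrophage-like cells. The number of Fth1 UMIs per Ftl1 UMI, read only between classes since gene length is common to them, was 2.55 and 3.08 in D3TA and 2.26 and 2.67 in WT erythroid-like cells. It was 1.59 and 1.48 in D3TA and 1.05 and 1.18 in WT macrophage-like cells, and 0.747 to 0.913 in monocyte-like cells. Erythroid-like cells thus had the highest ratio of the 3 classes in every library, and monocyte-like cells the lowest. The ratio was not highest in erythroid-like cells among all classes. B cell-like cells had 1.94 and 3.75 in D3TA and 3.05 and 3.19 in WT, above erythroid-like cells except in D3TA replicate 1. In that library most B cell-like cells were of cluster 12, which was rare in the others.

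**Figure D2:**
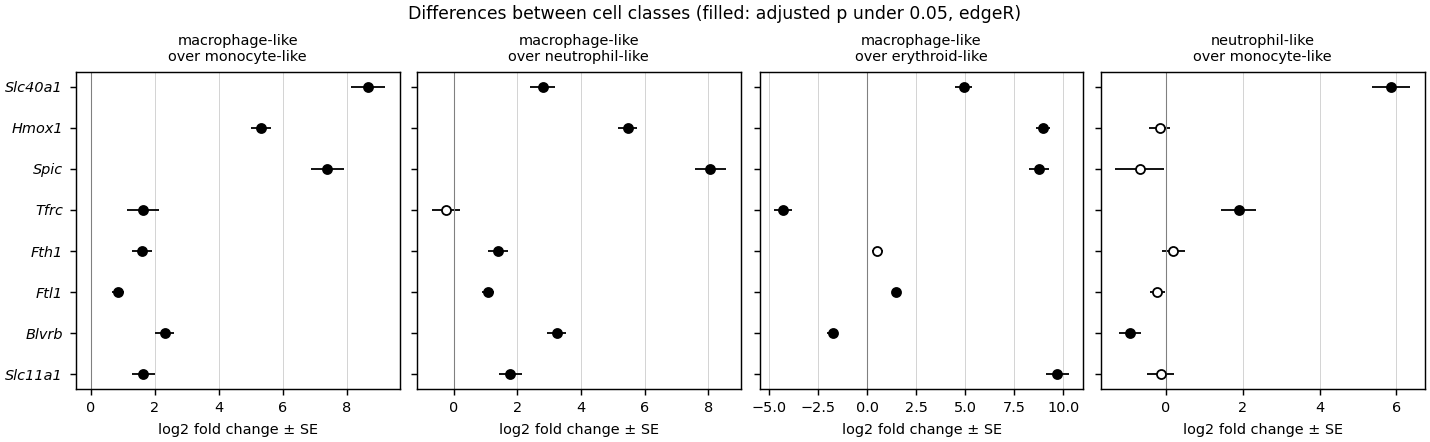
Log2 fold change with its standard error (x axis) of each gene between cell classes, edgeR over 4 libraries with the library as a term, filled where the adjusted p is under 0.05. All 8 genes are to the right of 0 for macrophage-like over monocyte-like cells, and Tfrc and Blvrb are to the left for macrophage-like over erythroid-like cells.

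Macrophage-like cells were higher than monocyte-like cells for 8 of 8 genes, where 13.7% of the 11370 genes tested were called higher at an adjusted p under 0.05. The median log2 difference of the 8 was 1.98, against -0.07 over all genes tested. The difference was 8.65 ± 0.53 on the log2 scale for Slc40a1 (SE; edgeR adjusted p = 9.9e-08), 5.31 ± 0.30 for Hmox1 (4.14e-08) and 7.38 ± 0.51 for Spic (3.54e-07). The Slc40a1 value rests on 22 and 7 monocyte-like UMIs in D3TA and 5 and 0 in WT, and the Spic value on 4 and 4 in D3TA and 6 and 4 in WT, close to the levels of cells that should lack Slc40a1, so the size of these folds is uncertain beyond their SE. The difference was smaller for Ftl1, at 0.85 ± 0.20 (0.00554), and for Tfrc, at 1.64 ± 0.51 (0.0286). Tfrc lost its call without D3TA replicate 1 (edgeR adjusted p = 0.108), without D3TA replicate 2 (0.0738) and with cells named one by one from a marker score (0.134), and Ftl1 without the library term (0.0927). Against neutrophil-like cells of all stages, 7 of 8 genes were higher in macrophage-like cells, with 19.3% of genes called higher. Slc40a1 differed least from neutrophil-like cells among the 3 genes named above, by 2.80 ± 0.38 (edgeR adjusted p = 6.02e-05), and Tfrc was the exception at -0.25 ± 0.44 (0.665).

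Against erythroid-like cells, 5 of 8 genes were higher in macrophage-like cells, where 33.4% of genes were called higher, and 2 of 8 were lower, where 32.2% were. The share called lower is close to the background. Slc40a1, Hmox1, Spic, Ftl1 and Slc11a1 were the higher ones, with Hmox1 at 8.98 ± 0.36 (edgeR adjusted p = 1.31e-09) and Slc40a1 at 4.91 ± 0.42 (3.97e-07). Erythroid-like Hmox1 was at 5.14 and 1.86 CPM in D3TA and 4.64 and 1.28 CPM in WT, within the range of B cell-like cells or below it (2.46 to 6.39 CPM), so the size of that fold is uncertain beyond its SE. Tfrc was lower by -4.30 ± 0.44 on the log2 scale (2.08e-06) and Blvrb by -1.75 ± 0.28 (8.69e-05). Fth1 did not pass, at 0.52 ± 0.30 (0.145). Between neutrophil-like and monocyte-like cells 2 genes were called higher in neutrophil-like cells, Slc40a1 by 5.86 ± 0.49 (edgeR adjusted p = 2.76e-06), over the same few monocyte-like UMIs, and Tfrc by 1.89 ± 0.46 (0.00675), where 17.3% of genes were called higher. Blvrb was lower by -0.94 ± 0.29 (0.025), where 12.2% of genes were called lower. Without D3TA replicate 1 the Tfrc difference did not pass (adjusted p = 0.0669), nor without D3TA replicate 2 (0.0632). Blvrb lost its call without D3TA replicate 1 (0.124), D3TA replicate 2 (0.14) or WT replicate 2 (0.11). Without the shallow WT replicate 1, the counts of genes called were again 8, 7, 7 and 3 in the 4 comparisons.

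Within a class, cells differed in how many of the transcripts were caught. With every cell thinned to 500 UMIs, Slc40a1 was seen in 32.9% and 53.4% of D3TA and 37.6% and 49.4% of WT macrophage-like cells. In mature neutrophil-like cells the share was 11.5% and 16.7% in D3TA and 9.20% and 23.6% in WT, and in B cell-like cells, which should lack the gene, it was 0.113% to 0.822%. Unthinned shares were 56.8% and 70.7% in D3TA and 59.5% and 70.1% in WT macrophage-like cells, which had medians of 1350 and 1023 UMIs in D3TA and 1211 and 1621 UMIs in WT. At least 1 UMI of each of Slc40a1, Hmox1 and Spic was found in 38.3% and 39.9% of D3TA and 18.1% and 37.7% of WT macrophage-like cells. None of the 3 was found in 21.4% and 6.77% of D3TA and 24.6% and 6.49% of WT cells of the class. Tfrc at 500 UMIs was seen in 37.6% and 20.1% of D3TA and 17% and 34.1% of WT erythroid-like cells, against 0.880% to 1.25% of B cell-like cells.

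Neutrophil-like cells covered several stages. In the precursor-like cluster Slc40a1 was at 33.4 and 60.3 CPM in the D3TA libraries and 46.8 CPM in WT replicate 1. In the mature cluster 13 it was at 355 and 629 CPM in D3TA and 719 and 800 CPM in WT. The clusters drawn between them rose in order in both D3TA libraries, an order that within a stage was set after the values were seen. Slc11a1 was at 1.21 and 1.24 CPM in the D3TA precursors and 0 CPM in WT replicate 1, and reached 103 and 129 CPM in D3TA and 179 and 137 CPM in WT in cluster 13. Tfrc ran the other way, with 38.4 and 63.2 CPM in D3TA and 84.3 CPM in WT replicate 1 in the precursors and 1.72 to 10.6 CPM in cluster 13. Fth1 and Ftl1 were lowest in the immature cluster 15, where Fth1 was at 373 and 308 CPM in D3TA, and Fth1 was at 3078 and 2796 CPM in D3TA and 3327 and 3402 CPM in WT in cluster 13. In mature neutrophil-like cells the 13 macrophage markers summed to 78.9 and 99.0 CPM in D3TA and 98.1 and 128 CPM in WT, against 16390 and 12510 CPM in D3TA and 10060 and 12780 CPM in WT macrophage-like cells. Over the 4 libraries that sum had the same order in mature neutrophil-like cells as Slc40a1, lowest in D3TA replicate 1 and highest in WT replicate 2, and the part of macrophage RNA in the Slc40a1 level was not tested. Vcam1 was at 4.31 and 10.0 CPM in D3TA and 2.50 and 0 CPM in WT.

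**Figure D3:**
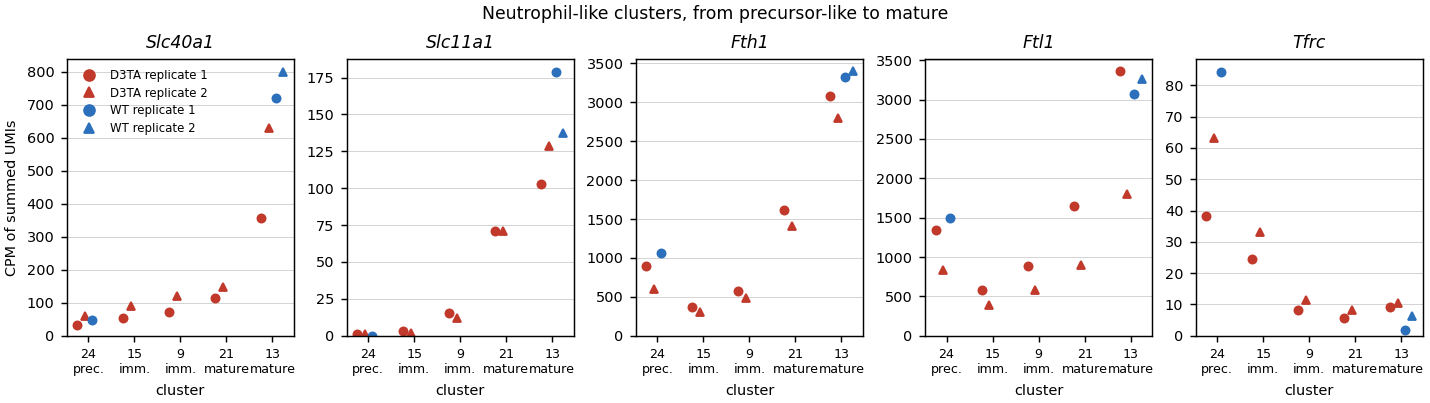
CPM of 5 genes (y axis) in 5 neutrophil-like clusters from precursor-like to mature (x axis), 1 point per library with at least 20 cells, D3TA in red left of WT in blue. Slc40a1 and Slc11a1 are highest in the mature cluster 13 and Tfrc in the precursors, and clusters 15, 9 and 21 have D3TA points only.

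The cells that held the transcripts differed between genotypes. Macrophage-like cells held 22.5% and 21.9% of all Slc40a1 UMIs in the D3TA libraries and 65.4% and 50.7% in the WT libraries. Neutrophil-like cells held 65.8% and 61.2% in D3TA and 18.8% and 27.3% in WT. The genotypes did not overlap in either share. Neutrophil-like cells made up 40.7% and 28.5% of D3TA cells and 5.46% and 2.06% of WT cells, which moves with these shares. For Hmox1, macrophage-like cells held 50.4% and 46.3% in D3TA and 73.2% and 54.9% in WT, and neutrophil-like cells 30.7% and 31.0% in D3TA and 2.68% and 3.70% in WT. For Tfrc, erythroid-like cells held the largest share of the named classes, 54.3% and 59.8% in D3TA and 39.6% and 58.7% in WT. B cell-like cells held 10.5% to 11.5% of Tfrc UMIs in D3TA and 19.2% to 32.4% in WT. Macrophage-like cells held 75.9% and 50.7% of Spic UMIs in D3TA and 61.6% and 49.9% in WT. This was the largest share of the named classes in each library. B cell-like cells held 3.121% to 31.74% of Spic UMIs in D3TA and 25.96% to 26.12% in WT.

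**Figure D4:**
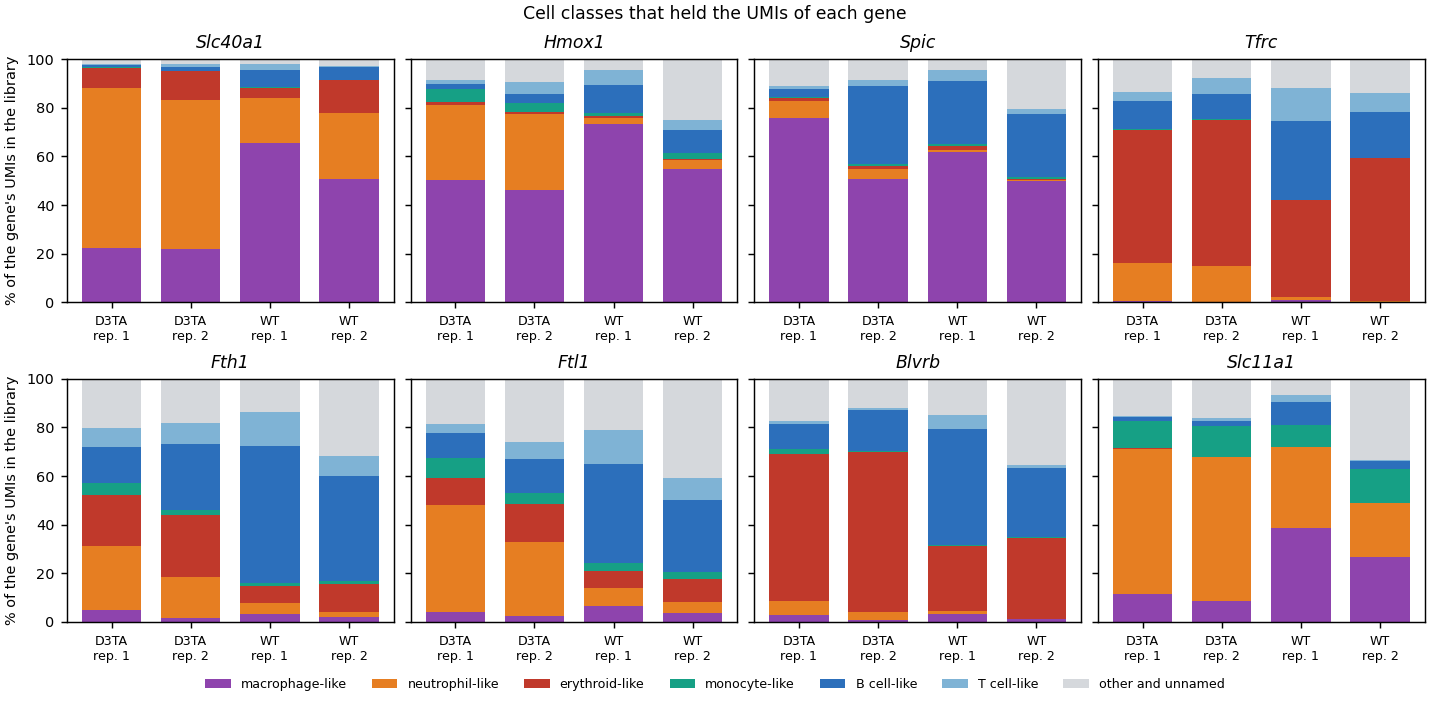
Share of each gene's UMIs (y axis, percent) that fell in each cell class, in 1 stacked bar per library, D3TA left of WT. Neutrophil-like cells hold 65.8% and 61.2% of Slc40a1 UMIs in D3TA and 18.8% and 27.3% in WT.

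Over the whole spleen none of the 8 genes differed between genotypes at the threshold, while 6.08% of the 18344 genes tested did. Slc40a1 was at 46.5 and 50.9 CPM in D3TA and 45.6 and 22.5 CPM in WT, a log2 difference of 0.60 ± 0.34 (SE; edgeR adjusted p = 0.355). Tfrc was at 51.6 and 54.7 CPM in D3TA and 38.0 and 41.6 CPM in WT, higher in both D3TA mice, and did not pass the threshold (0.50 ± 0.15, adjusted p = 0.137). Slc11a1 was at 12.7 and 6.96 CPM in D3TA and 6.76 and 4.82 CPM in WT (0.87 ± 0.39, adjusted p = 0.273). Spic had the lowest value, -0.43 ± 0.36 (0.516). Without D3TA replicate 2, 3 of the 8 genes passed, namely Tfrc at 0.52 (adjusted p = 0.0365), Ftl1 at 0.77 (0.0162) and Slc11a1 at 1.28 (0.0322), in a fit that called 29.3% of all genes. Tfrc alone of the 8 had an unadjusted p under 0.05 with all libraries, and DESeq2 called none. In such sums more cells of a type and more RNA per cell cannot be told apart.

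In macrophage-like cells all 8 genes were tested and none was called, where 0.714% of 8120 genes were. Beside Hmox1, described above, Fth1 differed by 0.55 ± 0.61 on the log2 scale (edgeR adjusted p = 0.995) and Spic by 0.24 ± 0.39 (0.995). Slc40a1 differed by -0.17 ± 0.46 and Slc11a1 by -0.36 ± 0.38 (both 0.995). The standard errors leave differences of the size of the estimates undecided, so the genotypes are not shown to be alike. None of the 8 had an unadjusted p under 0.05, and DESeq2 called none. Without D3TA replicate 2, Blvrb was called (0.91, adjusted p = 0.0466), in a fit that called 8.02% of all genes. In monocyte-like cells 6 of the 8 genes passed the filter on low counts and none was called, where 11.5% of 9257 genes were. None of the 6 had an unadjusted p under 0.05 and DESeq2 called none. Log2 differences lay between -0.65 ± 0.30 for Slc11a1 (edgeR adjusted p = 0.207) and 0.52 ± 0.76 for Tfrc (0.732). In erythroid-like cells 6 of 8 were tested and 0 were called, where 0% of 11386 genes were by edgeR, 617 had an unadjusted p under 0.05, and DESeq2 called 85 genes and none of the 8. The members ranged there between -0.32 ± 0.28 for Tfrc and 0.23 ± 0.80 for Hmox1 (both adjusted p = 1).

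**Figure D5:**
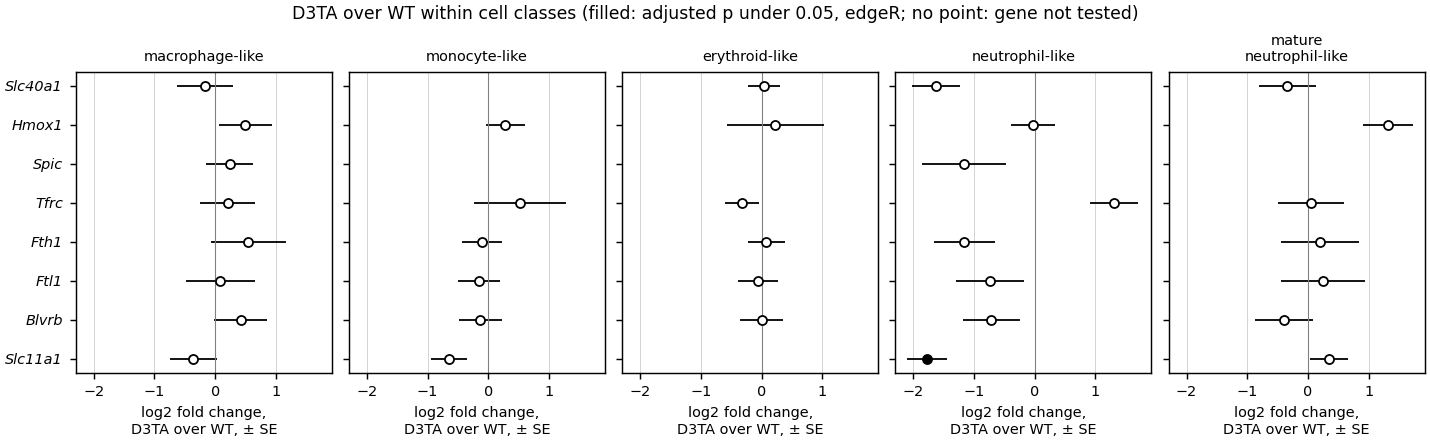
Log2 fold change of D3TA over WT with its standard error (x axis) for each gene in 5 cell classes, edgeR over 2 D3TA and 2 WT libraries, filled where the adjusted p is under 0.05. Among the points drawn, the filled one is Slc11a1 in neutrophil-like cells of all stages, at -1.78, and it is at 0.35 in mature neutrophil-like cells.

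In neutrophil-like cells of all stages Slc11a1 was the 1 gene of 8 that was called lower in D3TA, where 4.17% of 13130 genes were called lower and 6.5% in either direction. It was at 19.9 and 16.3 CPM in D3TA and 75.1 and 76.5 CPM in WT (-1.78 ± 0.33, edgeR adjusted p = 0.0343). The call was lost on leaving out D3TA replicate 1 (-2.17, adjusted p = 0.0873) or D3TA replicate 2 (-1.66, 0.141), in fits that called 14 and 23 genes in all. It stood without WT replicate 1 (-1.90, 1.42e-05). Slc40a1 was at 80.9 and 123 CPM in D3TA and 287 and 443 CPM in WT and missed the threshold (-1.62 ± 0.39, 0.0523), which it passed in 7 of the settings that kept all libraries. Tfrc, with 21.8 and 32.0 CPM in D3TA and 18.1 and 6.86 CPM in WT, missed it in the other direction (1.30 ± 0.40, 0.0821). The remaining estimates were -1.17 ± 0.69 for Spic, -1.16 ± 0.50 for Fth1, -0.74 ± 0.56 for Ftl1, -0.71 ± 0.47 for Blvrb and -0.03 ± 0.36 for Hmox1. Mature cells were 1475 of 4799 and 664 of 3012 neutrophil-like cells in D3TA and 1130 of 1216 and 140 of 158 in WT, so in these sums genotype and stage cannot be told apart.

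Among mature neutrophil-like cells alone, 7 of 8 genes were tested and none was called, where 8.4% of 9122 genes were. Hmox1 was at 68.3 and 57.7 CPM in D3TA and 27.0 and 50.2 CPM in WT, higher in both D3TA mice, with a log2 difference of 1.32 ± 0.41 (edgeR adjusted p = 0.0847). With the replicate number as a block it was 1.34 (adjusted p = 0.0255), and without WT replicate 1 it was 0.83 (0.271). Slc40a1 differed by -0.34 ± 0.47 (0.686), Blvrb by -0.39 ± 0.48 (0.635) and Slc11a1 by 0.35 ± 0.32 (0.52). The fitted differences of Slc11a1, Tfrc, Fth1 and Ftl1 were positive while their mean CPM was lower in D3TA, and that of Hmox1 exceeded the log2 ratio of its mean CPM (0.71). In cluster 13 alone Slc11a1 was at -0.25. The fit rescales libraries by TMM factors, and the 10 mature neutrophil markers took 253900 and 212000 CPM in D3TA and 45450 and 95710 CPM in WT of this class. The class was also made of different clusters: cluster 17 held 983 of the 1130 cells in WT replicate 1, while clusters 13 and 21 held most cells in D3TA. In cluster 13 alone, Hmox1 stood at 89.8 and 89.7 CPM in D3TA and 41.2 and 51.3 CPM in WT, and differed by 1.19 ± 0.27 (adjusted p = 0.118).

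Whether the genotype effect itself differed between classes was tested with interaction terms. None of the 8 genes passed for macrophage-like minus neutrophil-like cells, where 1.33% of 12279 genes did. Fth1 came nearest, with an effect in macrophage-like cells larger by 1.67 ± 0.42 on the log2 scale (edgeR adjusted p = 0.0724), followed by Slc11a1 at 1.41 ± 0.42 (0.127) and Slc40a1 at 1.34 ± 0.46 (0.175). For macrophage-like minus monocyte-like cells 0.155% of genes and none of the 8 passed, with Spic at 2.70 ± 0.84 (0.223). For macrophage-like minus erythroid-like cells 0.00814% of genes and none of the 8 passed.

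The neighbouring pathway genes were counted over 5 lists with 58 genes. In macrophage-like over erythroid-like cells, 12 of 14 heme synthesis genes were lower, where 32.2% of all genes were, and 1 was higher, with a median log2 difference of -3.29 against 0.02 over all genes tested. An example was Abcb10, a mitochondrial transporter, at -4.61 ± 0.33 (edgeR adjusted p = 9.64e-08). Of the 7 heme transport and breakdown genes tested, 4 were higher and none lower in macrophage-like than in monocyte-like cells, where 13.7% of all genes were higher. These included Cd163, the haptoglobin-hemoglobin receptor, at 6.25 ± 0.56 (3.16e-06), and Slc48a1, which moves heme out of the phagolysosome, at 2.96 ± 0.27 (3.13e-06). Blvra, the other biliverdin reductase, was higher by 1.46 ± 0.18 (6.09e-05). Of 7 iron storage and sensing genes, Ncoa4, the cargo receptor for ferritin breakdown, was the 1 higher, at 2.46 ± 0.33 (9.28e-05). Fbxl5, which targets iron regulatory protein 2 for degradation, was the 1 lower, at -1.04 ± 0.28 (0.0121). Of all 11370 genes tested, 1560 were called higher and 1735 lower, so 1 of 7 in each direction was near the background. Of 8 iron uptake and transfer genes 3 were higher and none lower, and of 12 genes of the BACH1 and NRF2 axis, which sets Hmox1 transcription, 4 were higher and 3 lower. Bach1, the heme-sensing repressor of Hmox1, was lower in macrophage-like cells at -1.67 ± 0.23 (0.000149).

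By genotype, no gene of the 5 lists was called in macrophage-like or erythroid-like cells. Over the whole spleen 7 of 55 tested were called (12.7%, against 6.08% of all genes), each higher in D3TA, as were 1046 of the 1116 genes called in all. Of 14 heme synthesis genes this was Alas1, the housekeeping first enzyme of heme synthesis, at 2.57 ± 0.22 (edgeR adjusted p = 0.00842). Of 13 genes of the BACH1 and NRF2 axis, Mafg, Gclm and Slc7a11 were higher, Mafg at 1.60 ± 0.20 (0.0175). The others were Fbxl5, Ncoa4 and Steap3, the endosomal ferrireductase, at 1.16 ± 0.21 (0.0442). In mature neutrophil-like cells 3 of 33 were called (9.09%), near the 8.4% of all genes. Gclm, a subunit of glutathione synthesis, was higher by 1.99 ± 0.42 (0.0339), Mafg by 2.06 ± 0.44 (0.0343) and Ncoa4 by 1.40 ± 0.32 (0.039). In neutrophil-like cells of all stages 4 of 49 were called (8.16%), near the 6.5% of all genes, 1 of them higher and 3 lower. The lower ones were Steap4, a ferrireductase, at -1.97 ± 0.34 (0.0308), Trf at -1.89 ± 0.44 (0.048) and Slc7a11, a cystine transporter, at -1.86 ± 0.41 (0.044). In monocyte-like cells 4 of 39 were called (10.3%), near the 11.5% of all genes, and these were lower in D3TA, namely Trf, the transferrin gene, at -2.59 ± 0.47 (0.00247), Cp, ceruloplasmin, at -1.79 ± 0.53 (0.0462), Hfe at -1.30 ± 0.30 (0.0141) and Slc25a37, mitoferrin 1, at -1.55 ± 0.40 (0.0229). Mature neutrophil markers summed to 12960 and 2515 CPM in D3TA and 438 and 251 CPM in WT monocyte-like cells, and their part in these differences was not tested.

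The genes with the most similar pattern were ranked by Pearson's r of log2(CPM + 1) over 45 sums from 13 classes, which share 4 libraries and their depth, and the r describes these sums only. Spic was closest to Mertk, a receptor for dying cells (r = 0.927), and to Cd5l (0.922). Hmox1 was closest to C1qa (0.897) and Clec4n (0.895). Slc40a1 was less closely matched, by Ehd1 (0.788), Fpr1, the formyl peptide receptor of neutrophils (0.772), and Ncoa4 (0.767). Slc11a1 was closest to Treml4 (0.921) and Fcgr4 (0.919), and Tfrc to Ubac1 (0.808) and Diablo (0.795).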

How the data were processed

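The deposited files hold raw UMI counts of each gene in each barcode. Cell Ranger 7.0.1 is named per the file headers and mm10 per the submitters' processing notes. Not given in the sources used here are the annotation release, the use of intronic reads and the handling of reads shared between gene copies. The labels' protocols describe mechanical dissociation, red cell lysis and 10x Chromium X capture.

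Cells with at least 500 UMIs, 250 genes and at most 10% mitochondrial UMIs were kept (53945), and Scrublet in scanpy 1.11.5 removed 1615 doublets. Its automatic threshold marked 0 cells in WT replicate 1, so the mean of the other thresholds was used there, chosen after the data were seen. From 2000 variable genes, without the 8 members and the pathway lists, 30 components, 15 neighbours and Leiden clustering (leidenalg 0.10.2, resolution 1) gave 36 clusters. These were named from 155 markers of 16 classes, giving 13 classes. Of the 4 unnamed clusters, 2 were led by genes of another class. The other 2 had under a minimum share of their closest class's markers, a rule added after the data were seen. The smaller of these 2 had 70 cells and 6 of 13 macrophage markers. This count asked for detection in at least 10% of the cluster's cells and a mean above that of all other cells. By it the macrophage-like cluster had 12 of 13. A rule on immunoglobulin genes outside B and plasma cells, also added then, left out no cluster. Cluster 11, named immature neutrophil, had more precursor than immature markers among its leading genes, so stages before the mature one are given by cluster. The members and lists were chosen with earlier results of these data known. The text names the 8 members and, of each list, genes among the 3 of smallest p.

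UMIs were summed per library and class, with at least 20 cells, and tested with edgeR 4.0.16 in R 4.3.3 (filterByExpr, TMM, quasi-likelihood, two-sided, Benjamini-Hochberg, threshold 0.05). Class comparisons had the library as a term. DESeq2 1.42.0 was an alternative. The 6 genotype fits and the comparison of macrophage-like over monocyte-like cells were tested on simulated counts with known changes. The interaction fits were not. Apart from the known changes the simulated classes were alike, which the real classes are not. Signs were recovered, but where the counts were drawn with each gene's own dispersion, the share of false calls exceeded the threshold's aim in 4 of the 6 genotype fits, whole spleen, monocyte-like, erythroid-like and mature neutrophil-like cells, so single genotype calls there are to be read with caution. Drawn with a dispersion smooth in expression, it did so in 1 of them. Replicates are separate mice, and p-values measure the spread between them. A 0 is given with the level that 3 UMIs would have. Replicate numbers did not pair samples (same-number correlations between -0.19 and 0.11).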

Additional observations from a re-analysis of the deposited data

How the results depend on the processing

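Fits with 1 mouse left in a genotype assume that it varies like the others. Leaving out a library gave these ranges of members called: 0 to 3 over the whole spleen, 0 to 1 in macrophage-like cells, 0 to 4 in neutrophil-like cells (0 without either D3TA library, where 0.129% and 0.213% of all genes were called, and 4 without either WT library, where 12% and 28.8% were), 0 to 2 in mature neutrophil-like cells and 1 to 3 for neutrophil-like over monocyte-like cells. With all libraries kept, the neutrophil-like count of 1 became 3 with DESeq2 (13% of all genes called) and without the filter on low counts (7.34%). It became 2 with doublets kept, with median-ratio scaling, with marker-score names, with a stricter cell filter, and without clusters 11 and 26. In these fits 7.52% to 14.4% of all genes were called. Marker-score names gave 1 in monocyte-like cells (7.8% of all genes called). Dropping the filter gave 1 in mature neutrophil-like cells (9.44% called) and 1 in the macrophage-like minus monocyte-like interaction. The macrophage-like minus neutrophil-like interaction gave 2 with DESeq2, 1 with median-ratio scaling and 3 without the filter. The shares of all genes called in these interaction fits are not given here, so their counts are not read as results about the members. The causes were not tested.

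Replicate numbers did not pair the mice. The replicate block raised the mature neutrophil-like count of members to 1 (Hmox1) and its genes called to 1217, against 766. A crossed block, added after seeing the data, called 163 genes in macrophage-like cells and 0 members.

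Over every member and comparison, 20 estimates changed sign with all libraries kept and 58 with a library left out, 0 of them for a called value. Of the 497 estimates with all libraries kept that concern test values given in the text, 466 kept direction and call, 18 passed the threshold anew, 3 lost it and 10 changed sign. With marker-score names, the genotype effects that changed sign were Slc40a1 (0.040) and Slc11a1 (0.082) in macrophage-like and Hmox1 (-0.61) in erythroid-like cells, and for neutrophil-like over monocyte-like cells Hmox1 (0.075) and Slc11a1 (0.088). Slc11a1 did so there without the library term (0.032), Hmox1 in neutrophil-like cells without the filter (0.085), Blvrb (0.26) and Slc11a1 (-0.25) in cluster 13 alone, and Tfrc for macrophage-like over neutrophil-like cells with the stricter filter (0.064).

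Of 248 such results with a library left out, 19 changed sign. Genotype effects spanned -0.27 to 0.77 for Ftl1 over the whole spleen, and in macrophage-like cells -0.53 to 0.13 for Slc40a1, -0.26 to 1.10 for Fth1 and -0.30 to 0.91 for Blvrb. Tfrc spanned -0.28 to 7.32 in monocyte-like cells, where WT replicate 2 had 0 UMIs and the upper value depends on the prior count, and -0.61 to 0.065 in erythroid-like cells, where Hmox1 spanned -0.81 to 1.36. In neutrophil-like cells the spans were -0.42 to 0.31 for Hmox1, -1.48 to 0.040 for Spic and -1.41 to 0.015 for Blvrb, and in mature ones -0.83 to 0.52 for Slc40a1 and -1.01 to 0.23 for Blvrb. Between classes they were -0.51 to 0.072 for Tfrc (macrophage-like over neutrophil-like), and -0.063 to 0.40 for Fth1 and -0.48 to 0.21 for Slc11a1 (neutrophil-like over monocyte-like).

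Counts of all genes called moved as well. DESeq2 called 2446 genes over the whole spleen, against 1116. With a library left out, calls ran from 239 to 5534 over the whole spleen, 0 to 779 in macrophage-like, 655 to 1584 in monocyte-like, 11 to 235 in erythroid-like, 14 to 4281 in neutrophil-like and 127 to 3576 in mature neutrophil-like cells. Macrophage-like cells had 58, against 288 without the filter, 16 with marker-score names, 13 with cluster 34, 92 with the replicate block and 0 without WT replicate 2. Erythroid-like cells had 0, against 450 without the filter, 140 with the block and 85 with DESeq2. Neutrophil-like cells had 854, against 1312 to 1845 in the settings above that changed it by over 1.5 times with all libraries kept. Mature ones had 766, against 1736 without the filter, 177 with marker-score names and 27 in cluster 13. Median-ratio scaling moved the median log2 difference of all genes for macrophage-like over neutrophil-like cells to -0.06, against -0.16. WT replicate 1 had the lowest median of UMIs per kept cell, but its macrophage-like cells, at 1211, lay between those of the D3TA libraries (1350 and 1023). The part of depth in its unthinned shares of cells with a UMI was not tested.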
